A study of Mus musculus with 10 samples.

Results

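Apolipoproteins and the VLDL assembly factor Mttp were described here in fasted mouse liver as 10 genes, Apoa1, Apoa2, Apoa4, Apoa5, Apob, Apoc1, Apoc3, Apoe, Apom and Mttp, chosen by symbol. All 10 were present among the 19764 genes of the count table, and all 10 were among the 12558 genes with enough counts to be tested. Whole liver was compared between female mice with a floxed glucocorticoid receptor gene and LysM-Cre (GRMAC) and littermates with the floxed gene alone (GRflox), 5 libraries each. LysM-Cre drives recombination in cells of the myeloid lineage, macrophages among them. In both genotypes the mice were fasted for 8 h from ZT12, the start of their active phase, and the labels record no other treatment. Because the controls had no Cre, effects of the Cre transgene and of receptor loss cannot be told apart.

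The liver exports triglyceride in very low density lipoproteins (VLDL), each built on a single molecule of apolipoprotein B. Microsomal triglyceride transfer protein, the product of Mttp, loads lipid onto apolipoprotein B as it enters the endoplasmic reticulum. The smaller apolipoproteins move between particles in plasma: those of the A group mostly structure high density lipoproteins (HDL), those of the C group tune lipolysis by lipoprotein lipase, and apolipoprotein E binds hepatic remnant receptors. Hepatocytes make nearly all of these transcripts in liver, while macrophages also express Apoe and Apoc1 and enterocytes also express Apoa4, Apob and Mttp.

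Apob, Apoa4 and Mttp are the genes on which the comparisons below turn, and Apoa1 lies in the same gene cluster as Apoa4 on chromosome 9. The 250 bases before the annotated start of each are therefore shown, 5′ to 3′ on the gene's own strand (RefSeq, GRCm38.p6). Promoter sequences were matched for 8 of the 10 genes, not for Apoc1 and Apoc3. Capitals mark letters that matched one of the motifs searched.
Apob, chr12:7977427-7977676, plus strand: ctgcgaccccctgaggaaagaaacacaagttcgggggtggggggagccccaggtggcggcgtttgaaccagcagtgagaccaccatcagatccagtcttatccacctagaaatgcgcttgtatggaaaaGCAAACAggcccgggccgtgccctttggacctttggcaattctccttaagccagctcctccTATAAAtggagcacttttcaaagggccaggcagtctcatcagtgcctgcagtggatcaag
Mttp, chr3:138143419-138143668, minus strand: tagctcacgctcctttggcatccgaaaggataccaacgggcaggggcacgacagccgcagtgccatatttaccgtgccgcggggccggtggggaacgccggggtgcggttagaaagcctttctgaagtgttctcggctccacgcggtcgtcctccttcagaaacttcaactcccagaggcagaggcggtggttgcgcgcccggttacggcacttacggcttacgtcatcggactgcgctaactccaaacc
Apoa4, chr9:46240594-46240843, plus strand: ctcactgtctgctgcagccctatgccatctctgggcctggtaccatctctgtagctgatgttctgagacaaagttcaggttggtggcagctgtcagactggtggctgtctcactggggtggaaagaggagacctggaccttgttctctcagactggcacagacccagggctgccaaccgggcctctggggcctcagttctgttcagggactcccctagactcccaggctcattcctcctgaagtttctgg
Apoa1, chr9:46228380-46228629, plus strand: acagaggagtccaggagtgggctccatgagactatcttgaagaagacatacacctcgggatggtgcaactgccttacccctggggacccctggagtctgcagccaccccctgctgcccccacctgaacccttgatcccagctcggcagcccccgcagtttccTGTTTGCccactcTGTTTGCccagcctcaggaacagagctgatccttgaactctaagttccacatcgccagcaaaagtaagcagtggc

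The motifs were searched on both strands: TATAAA (the core promoter element), CAAAGTCCA (a repeat bound by HNF4A), CAAAGGTCA (a repeat bound by several nuclear receptors), AGGTCA (a nuclear receptor hexamer, contained in the previous motif), TGTTTAC (a forkhead factor motif), its common variant TGTTTGC, and ACANNNTGT (core of the glucocorticoid response element). TGTTTGC or its complement was present in 3 of the 8 promoters (Apoa1, Apoa5 and Apob), against 4.30% of 32851 mouse promoter windows of the same length. Apoa1 held it at 2 places, at −88 to −82 and at −75 to −69 before the start. In Apob it lay on the opposite strand at −121 to −115, with TATAAA at −60 to −55. TATAAA was found in 2 of the 8 (Apoa5 and Apob; 12.4% of all windows) and AGGTCA in Apoa2 (14.0%). Apoa2 also held ACANNNTGT at −148 to −140, as did 5.84% of all windows. The other motifs searched did not match any of the 8 windows. They were present in 0.384% (CAAAGTCCA), 0.426% (CAAAGGTCA) and 3.17% (TGTTTAC) of all windows. These are exact matches of letters within short windows and carry no measurement of binding. Sites spelled otherwise than the motifs listed were not counted.

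Library totals were 25697931 to 27692528 counts in GRflox and 23258884 to 26116916 in GRMAC. The targeted gene Nr3c1 ranged over 63.8 to 81.2 CPM in the GRflox libraries and over 74.7 to 94.0 CPM in the GRMAC libraries (adjusted p = 0.277 with edgeR). A gene-level count of whole liver does not check a deletion in myeloid cells. The 7 hepatocyte markers in the table summed to 115319 to 133499 CPM in GRflox and to 112090.0 to 134839 CPM in GRMAC, and none passed the test. Of 12 Kupffer cell and macrophage markers 1 fell and none rose with edgeR (0.175% of all tested genes passed in either direction), and their sum was 274 to 365 CPM in GRflox and 294 to 415 CPM in GRMAC. The one that fell was Cd163, a haemoglobin scavenger receptor of macrophages (28.8 ± 7.81 and 3.07 ± 0.493 CPM, log2 fold change −3.22 ± 0.19, adjusted p = 2.55e-05, edgeR). In the authors' deposited table Cd163 fell as well and Cd5l, a secreted macrophage protein, rose (adjusted p = 0.0056), and both were without overlap between genotypes; they were singled out after their values were seen. Of the 7 enterocyte markers in the table, Sis, Alpi, Cdx1 and Cdx2 had no count in any library, and no enterocyte marker exceeded 9 counts. For these genes a count of 0 allows a level of up to 3 counts, or 0.108 to 0.129 CPM depending on the library. In these bulk libraries, fewer cells of a type and less RNA per cell cannot be told apart.

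Together the 10 genes took up 4.24% ± 0.166 of all gene counts in GRflox and 4.20% ± 0.197 in GRMAC (SD, n = 5). Apoe alone made up 1.84% ± 0.120 and 1.75% ± 0.177. Counts ranged from 3791 (Apom in GRMAC 4) to 533442 (Apoe in GRflox 4), so counting error was at most 1.62% of a value and the spread between libraries was larger than that for all 10 genes. The 1.62% covers counting error only.

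Levels were set between genes only after division by transcript length, as CPM per kb. In GRflox the order was Apoe (13163 ± 776 CPM per kb), Apoa2 (8584 ± 730), Apoa1 (6509 ± 824), Apoc1 (3342 ± 343), Apoc3 (2752 ± 185), Apoa4 (1176 ± 466), Apoa5 (1045 ± 85.0), Apob (356 ± 14.6), Mttp (214 ± 12.5) and Apom (174 ± 12.9; SD, n = 5). Apoe stood above the rest in every library of both genotypes, with 10199 CPM per kb in its lowest. Among GRflox libraries the neighbours in this order that overlapped were Apoc1 with Apoc3 and Apoa4 with Apoa5. In GRMAC liver Apoa1 (6698 to 8143 CPM per kb) overlapped Apoa2 (6738 to 9638). Apoa4 (370 to 1289 CPM per kb) spanned both Apoa5 (989 to 1179) and Apob (376 to 446) there. Mttp (176 to 211) overlapped Apom (144 to 193) as well.

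**Figure D1:**
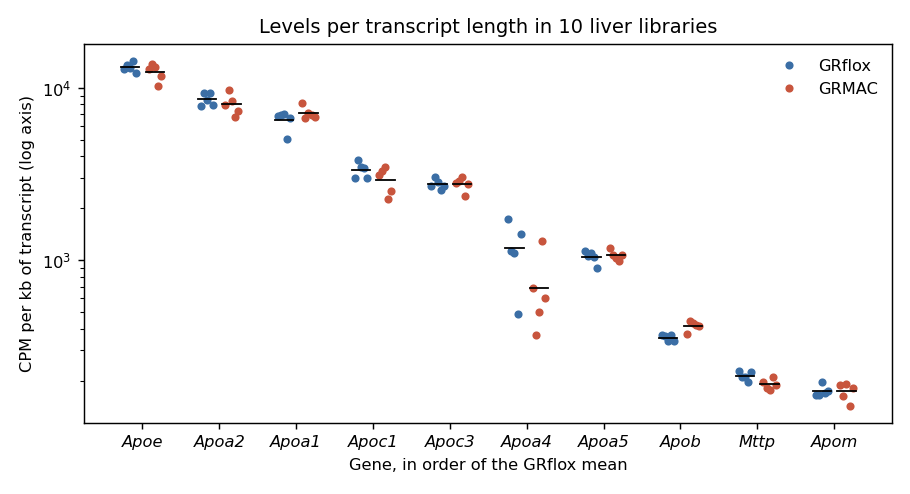
CPM per kb of transcript on a log axis for the 10 genes, in order of the GRflox mean. Each point is 1 library (5 GRflox, blue; 5 GRMAC, red) and bars are group means; Apoe is highest throughout, and Apoa4 is the gene with the widest scatter, from 370 to 1740.5 CPM per kb.

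None of the 10 genes passed the test between genotypes with edgeR (adjusted p under 0.05 over all genes, a threshold that 22 of 12558 genes, 0.175%, passed) or with limma-voom. At an unadjusted p under 0.05 there were 2 (Apob, higher in GRMAC, and Mttp, lower), where 16.3% of all tested genes had such a p. With DESeq2, and in the authors' deposited table, 1 of the 10 passed, Apob, against 3.33% of the genes with an adjusted p there (1.84% with GRMAC higher). The median log2 fold change of the 10 was −0.05, with 4 positive and 6 negative, against 0.0010 over all tested genes. Apart from Apoa4, every one of the 10 had an absolute log2 fold change under that of Apob.

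**Figure D2:**
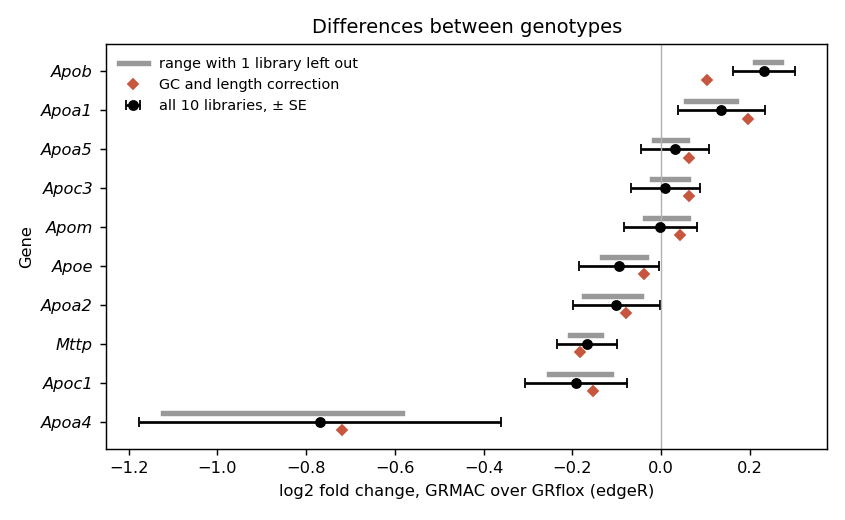
log2 fold change of GRMAC over GRflox for each gene (edgeR; points with SE), the range when 1 library was left out (grey bars) and the value after a correction for GC content and transcript length (diamonds). Apob lies at 0.23 and moves to 0.10 with the correction, Mttp lies at −0.17, and Apoa4 lies at −0.77 with an SE of 0.41.

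Apob encodes the structural protein of VLDL (NM_009693, mm10 chromosome 12, 7977677 to 8016839). Its level was 5118, 5059, 4762, 5143 and 4719 CPM in GRflox libraries 1 to 5 and 5238, 6208, 6059, 5838 and 5767 CPM in GRMAC libraries 1 to 5. Every GRMAC library lay above every GRflox library, and GRMAC 1 did so by the smallest margin. It was the only one of the 10 without overlap between genotypes, as were 4.05% of all tested genes (2.05% with GRMAC higher). Means were 4960.1 ± 203 and 5822 ± 371 CPM (SD, n = 5), a ratio of 1.17 with a 95% interval of 1.06 to 1.30. With edgeR the log2 fold change was 0.23 ± 0.07 (SE) and did not pass over all genes (adjusted p = 0.144), whereas Apob rose in the authors' deposited table (log2 fold change 0.23, adjusted p = 0.00667). The exact permutation test of its log2 CPM, two-sided, gave p = 0.00794, the smallest that 5 against 5 libraries allow. That p follows from the lack of overlap already given and adds nothing to it. The 13934-base transcript of Apob is longer than 99.6% of those tested, and its GC content of 43.5% is higher than that of only 14.9% of them. After a correction for both properties, chosen after the data were seen, the log2 fold change was 0.10 (adjusted p = 0.479, edgeR).

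Mttp encodes the lipid-transferring subunit of the triglyceride transfer complex (NM_001163457, chromosome 3, 138089855 to 138143388). Libraries 1 to 5 held 699, 645, 649, 605 and 692 CPM in GRflox and 602, 559, 542, 648 and 578 CPM in GRMAC. The genotypes overlapped through GRMAC 4, the highest of its group, which lay above GRflox 2 and GRflox 4. GRflox 4, the lowest of its own group, still lay above every other GRMAC library. Means were 658 ± 38.4 and 586 ± 41.4 CPM, a log2 fold change of −0.17 ± 0.07 that did not pass (adjusted p = 0.241 with edgeR; adjusted p = 0.145 in the authors' deposited table). A two-sided exact permutation test gave p = 0.0317.

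Counts of Apob per count of Mttp, a ratio within each library that does not depend on scaling, were 6.82 to 8.50 in GRflox and 8.69 to 11.2 in GRMAC. The means were 7.56 ± 0.637 and 9.99 ± 1.15 (SD, n = 5), and the genotypes did not overlap. This ratio was formed after the counts had been seen and is given without a test. It was not corrected for transcript length (13934 bases for Apob, 3072 for Mttp) or GC content (43.55% and 49.25%).

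Apoa4 encodes an apolipoprotein of nascent VLDL, chylomicrons and HDL whose hepatic transcript rises with fasting and triglyceride load (NM_007468, chromosome 9, 46240844 to 46243458). Libraries 1 to 5 held 3159, 2043, 2001, 881 and 2591 CPM in GRflox and 1249.9, 671, 912, 2340.2 and 1090.1 CPM in GRMAC. Apart from library 4 of each genotype, the GRflox values were all above the GRMAC values; GRflox 4 was lower than 4 GRMAC libraries and GRMAC 4 was higher than 3 GRflox libraries. Means were 2135 ± 845 and 1253 ± 645 CPM, and the log2 fold change of −0.77 ± 0.41 did not pass (adjusted p = 0.39, edgeR; exact permutation test, p = 0.127). The 95% interval of the ratio ran from 0.308 to 1.12. Without GRflox 4 and GRMAC 4 the value was −1.32 (adjusted p = 0.0499, edgeR). Those libraries were left out after the data were seen and lie against their genotype for this gene, so that leaving them out can only enlarge the difference.

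**Figure D3:**
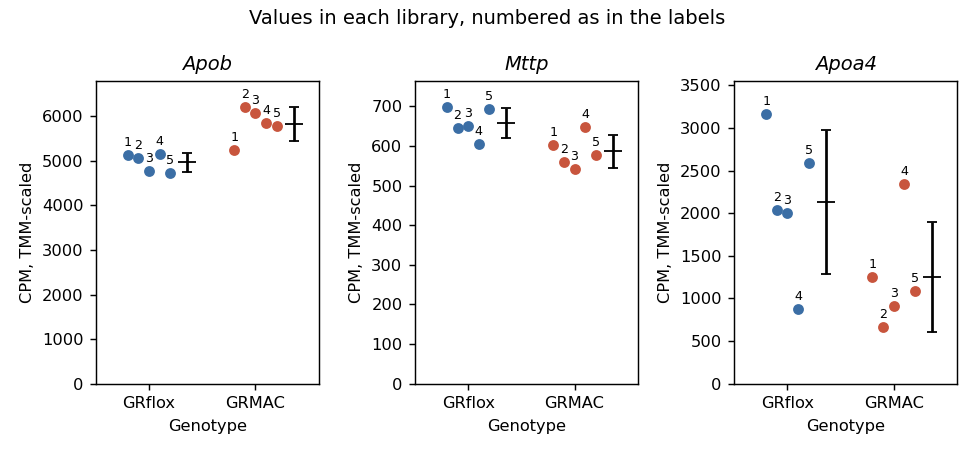
TMM-scaled CPM of Apob, Mttp and Apoa4 in each library, numbered as in the labels, with the group mean and SD beside the points; the axes start at 0. Apob separates the genotypes (GRflox up to 5143, GRMAC from 5238). Library 4 of each genotype crosses over for Apoa4, whereas for Mttp only GRMAC 4 does.

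Among the 111 genes with a mean of at least 1000 CPM, Apoa4 was the second most variable within genotypes (SD 0.69 in log2 CPM, where the median gene had 0.14). Its highest library exceeded its lowest 4.71-fold, while the other members ranged from 1.28-fold (Apoc3) to 1.68-fold (Apoc1). Apob was among the least variable, ranking 94 of the 111 (SD 0.08).

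Of 7952 other genes with a mean of at least 10 CPM, the closest to Apoa4 across the 10 libraries were Synpo, Cidec and Cntnap1. The measure was the root-mean-square difference of log2 CPM after centring each gene, which came to 0.25 for Synpo, 0.26 for Cidec and 0.27 for Cntnap1. Cidec, which encodes a lipid droplet protein, was at 174, 103, 95.6, 36.9 and 134 CPM in GRflox libraries 1 to 5 and at 65.0, 37.0, 28.4, 123 and 39.8 CPM in GRMAC libraries 1 to 5. Library 4 was the lowest of GRflox and the highest of GRMAC for Cidec as for Apoa4. Synpo, the gene of the actin-associated protein synaptopodin, had 24.1 CPM in GRflox 4 and 54.4 CPM in GRMAC 4, again the lowest and the highest of their groups. Because these genes were picked for closeness to Apoa4 in the same libraries, such shared extremes follow from the choice. Neither Synpo (−0.52 ± 0.31), Cidec (−0.89 ± 0.51) nor Cntnap1 (−0.61 ± 0.50) differed between genotypes past the edgeR threshold (adjusted p = 0.44, 0.435 and 0.595).

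The 4 genes Apoa1, Apoc3, Apoa4 and Apoa5 lie in one cluster on chromosome 9. Apoa1, the main protein of HDL (NM_009692, 46228630 to 46230469), averaged 6737 ± 853 CPM in GRflox libraries and 7399.8 ± 603 CPM in those of GRMAC (log2 fold change 0.14 ± 0.10, adjusted p = 0.522, edgeR). GRflox 4 was the lowest Apoa1 library, at 5233 CPM, and without it the log2 fold change was 0.06. Apoc3, an inhibitor of triglyceride clearance (NM_001289756, 46233050 to 46235636), spanned 1151 to 1374 CPM in GRflox libraries and 1072 to 1377 CPM in those of GRMAC. Its log2 fold change was 0.01 ± 0.08, with a 95% interval of the ratio from 0.896 to 1.13. Apoa5, an activator of lipoprotein lipase and of plasma triglyceride clearance (NM_080434, 46268608 to 46271919), was at 2088 to 2598 CPM and at 2286 to 2726 CPM (0.03 ± 0.08, ratio interval 0.911 to 1.15). Within this cluster the count of Apoa4 per count of Apoa1 was 0.168 to 0.443 in GRflox and 0.0968 to 0.324 in GRMAC, and the genotypes overlapped. The same ratio for Apoa5 was 0.304 to 0.461 and 0.317 to 0.356.

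Apoe and Apoc1 are neighbours on chromosome 7. Apoe, the ligand of remnant receptors (NM_009696, 19696244 to 19699188), was at 18165, 19111, 18232, 20029 and 17129 CPM in GRflox libraries 1 to 5 and at 18112, 19384, 18437, 14361 and 16465 CPM in GRMAC libraries 1 to 5. GRMAC 4 and GRMAC 5 were the 2 lowest of the 10 libraries and the other 3 GRMAC values lay within the GRflox range, and the log2 fold change was −0.10 ± 0.09 (adjusted p = 0.645 with edgeR). Without GRMAC 4 it was −0.03. Apoc1, an inhibitor of lipoprotein uptake and lipolysis (NM_001110009, 19689480 to 19692659), was at 1444 ± 148 and 1264 ± 220.4 CPM (−0.19 ± 0.12, adjusted p = 0.436, edgeR). Counts of Apoe per count of Apoc1 stayed between 11.6 and 14.0 in GRflox and between 12.4 and 15.1 in GRMAC. The macrophage markers given above had a positive log2 fold change in 8 of 12 genes and a negative one in 4. Their part in these values was not tested.

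Apoa2, another HDL protein (NM_001305585, chromosome 1, 171221564 to 171226379), was at 4446 ± 378 and 4145 ± 570.3 CPM (−0.10 ± 0.10, adjusted p = 0.658, edgeR). Apom, the HDL carrier of sphingosine 1-phosphate (NM_018816, chromosome 17, 35128997 to 35131752), was at 177 ± 13.0 and 177 ± 20.9 CPM (−0.0015 ± 0.08, ratio interval 0.882 to 1.13).

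Variation between libraries of the same genotype was compared for the 45 pairs of genes, with each genotype's mean removed (log2 CPM, 10 libraries, permutation within genotype, Benjamini-Hochberg over the 45 pairs). In all, 8 pairs passed by Pearson's r. Pairs of other genes were not examined, so whether so many would pass among other liver genes was not tested. Apoa4 and Mttp went together (r = 0.927, permutation p = 0.00116, adjusted p = 0.0331; Spearman's rho 0.939, permutation p = 0.00069, adjusted p = 0.031), and r was 0.864 without the 2 libraries farthest from the Apoa4 median. Apoa2 and Apoe also went together (r = 0.914, permutation p = 0.00147, adjusted p = 0.0331; rho 0.879, permutation p = 0.00309, adjusted p = 0.0463; r 0.859 without the 2 farthest libraries). Apoc1 varied in the same direction as Apoa2 (r = 0.865, permutation p = 0.0041, adjusted p = 0.0361), Apoe (r = 0.883, permutation p = 0.00561, adjusted p = 0.0361) and Apoc3 (r = 0.801, permutation p = 0.0053, adjusted p = 0.0361). Their rho was 0.842, 0.758 and 0.855 (permutation p = 0.00749, 0.0367 and 0.00138; adjusted p = 0.0562, 0.183 and 0.031), and r without the 2 farthest libraries was 0.847, 0.763 and 0.729.

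Apoe ran opposite to Apoa4 (r = −0.829, permutation p = 0.00276, adjusted p = 0.0361; rho −0.794, permutation p = 0.0147, adjusted p = 0.0946; r −0.740 without the 2 farthest libraries) and to Mttp (r = −0.815, permutation p = 0.00878, adjusted p = 0.0494; rho −0.842, permutation p = 0.00628, adjusted p = 0.0562; r −0.693). Apoa2 also ran opposite to Apoa4 (r = −0.832, permutation p = 0.00327, adjusted p = 0.0361; rho −0.733, permutation p = 0.0301, adjusted p = 0.169; r −0.706). By Spearman's rho 3 of the 8 passed: Apoa4 with Mttp, Apoa2 with Apoe, and Apoc1 with Apoc3. Apoa1 and Apoa4, of the same gene cluster, did not pass (r = 0.631, permutation p = 0.0684, adjusted p = 0.237). Their rho was 0.527 (permutation p = 0.117, adjusted p = 0.35), and r was 0.330 without the 2 farthest libraries. Apob passed with no other member. All values share the library's scaling and total. With 1 library left out the number of pairs passing was 0 to 7. It was 0 without GRflox 3, GRflox 5 or GRMAC 4, 1 without GRMAC 3, 2 without GRMAC 2 and 3 without GRflox 1 or GRflox 2.

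**Figure D4:**
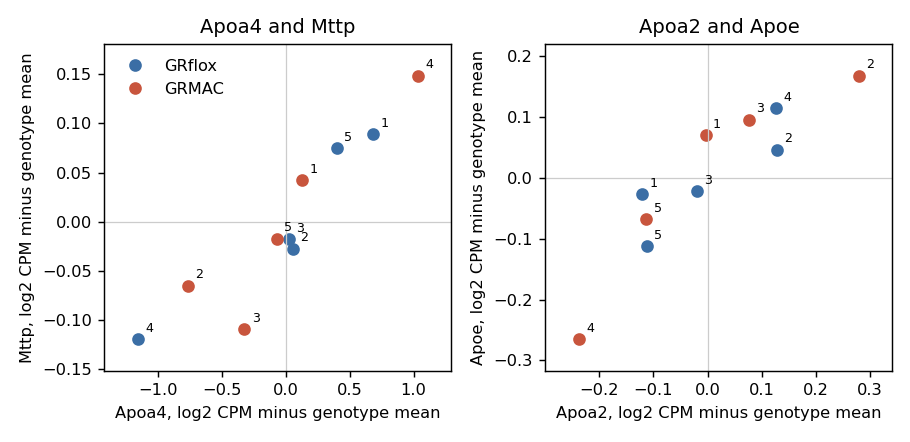
log2 CPM minus the genotype mean in each of the 10 libraries, for Apoa4 against Mttp (r = 0.927) and Apoa2 against Apoe (r = 0.914), numbered as in the labels. Library 4 of each genotype lies at opposite ends for Apoa4 and Mttp, and GRMAC 4 lies lowest on both axes for Apoa2 and Apoe.

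Beyond the 10 genes, 91 tested genes of lipoprotein metabolism from 6 further lists were read from the same fit. With edgeR 1 fell and none rose. At an unadjusted p under 0.05 there were 25 of the 91, where 16.3% of all tested genes had such a p. In 9 of the 91 the genotypes did not overlap, as in 4.05% of all tested genes. The same shares stand beside the values given for each list below. By the authors' deposited values 3 of the 91 were higher and 4 lower, against 3.33% of all genes in either direction. The lists were drawn up with earlier results of these data known, so none of these counts, here or below, is a test of a list. The median log2 fold change of the 91 was 0.01. The gene that fell was Angptl4, whose product inhibits lipoprotein lipase (387 ± 40.0 to 278 ± 24.2 CPM, −0.48 ± 0.08, adjusted p = 0.0432). Its genotypes did not overlap, and it fell in the authors' deposited table (adjusted p = 5.3e-05). The call held in 9 of 20 alternatives, among them the replicate number as a block (adjusted p = 0.0265) and no filter (adjusted p = 0.0282). The call was lost with limma-voom (adjusted p = 0.056), with edgeR without robust estimation (adjusted p = 0.0563) and with the GC and length correction (adjusted p = 0.0646), with log2 fold changes of −0.48 in each. It was also lost without any 1 of GRflox 1, 2, 3 and 5 or GRMAC 1, 2, 3 and 4 (highest adjusted p = 0.106), and the value with 1 library left out was −0.52 to −0.42. The other 6 tested genes of the lipoprotein lipase system did not pass, and the list's median was −0.10.

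Of 23 genes of VLDL assembly and secretion none passed with edgeR (5 at an unadjusted p under 0.05; median −0.01). Smlr1, a hepatic membrane protein linked to VLDL secretion, was at 25.6 ± 1.43 and 30.9 ± 2.37 CPM without overlap between genotypes (0.27 ± 0.07, adjusted p = 0.085, edgeR), and it rose in the authors' deposited table (adjusted p = 0.0161). Tm6sf2, which acts in the lipidation of VLDL, was at 36.9 ± 1.29 and 32.4 ± 1.93 CPM, also without overlap (−0.19 ± 0.06, adjusted p = 0.143, edgeR).

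Among 11 genes of HDL formation and remodelling none passed with edgeR (3 at an unadjusted p under 0.05; median 0.08), while by the authors' deposited table a single gene rose and a single gene fell. The gene that fell there was Lipg, the endothelial lipase that hydrolyses HDL phospholipid (adjusted p = 5.3e-05). It was at 71.1 ± 11.3 and 26.5 ± 9.85 CPM, without overlap between genotypes (−1.43 ± 0.25, adjusted p = 0.0628, edgeR). Lipg passed with limma-voom (adjusted p = 0.0189), with edgeR without robust estimation (adjusted p = 0.0338), with the replicate number as a block (adjusted p = 0.0128), without GRMAC 5 (adjusted p = 0.0124) and without both GRflox 4 and GRMAC 4 (adjusted p = 0.0341). With 1 library left out its log2 fold change was −1.65 to −1.27 and the adjusted p reached 0.143. The riser was Pltp, the phospholipid transfer protein (adjusted p = 0.012), at 36.6 ± 5.45 and 52.1 ± 9.67 CPM (0.51 ± 0.13, adjusted p = 0.109, edgeR; adjusted p = 0.0265 with the replicate number as a block).

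Of 29 regulators of apolipoprotein genes none passed with edgeR (median −0.05). At an unadjusted p under 0.05, 5 were higher and 6 lower, beside the 16.3% of all tested genes in either direction. In the authors' deposited table Nr1h3 fell (adjusted p = 0.0204) and Prox1 rose (adjusted p = 0.012). Nr1h3, the oxysterol receptor LXR alpha, which activates Apoe and Apoc1 in macrophages, was at 122 ± 3.20 and 109 ± 3.55 CPM (−0.16 ± 0.05, adjusted p = 0.145, edgeR). Prox1, a corepressor in hepatocytes, was at 109 ± 10.6 and 141 ± 15.7 CPM (0.36 ± 0.09, adjusted p = 0.0808, edgeR; adjusted p = 0.0433 without GRMAC 2).

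No gene passed either test among 9 of remnant and LDL uptake (3 at an unadjusted p under 0.05) or among 12 further apolipoproteins and HDL proteins (1 at an unadjusted p under 0.05). Among the lowest p in the uptake list was that of Sdc1, a heparan sulfate remnant receptor (460 ± 25.1 and 401 ± 29.0 CPM, −0.20 ± 0.07). In the apolipoprotein list the lowest were those of Apon (374 ± 25.1 and 295 ± 61.1 CPM, −0.34 ± 0.12) and Apof, a lipid transfer inhibitor (512 ± 32.9 and 439 ± 73.9 CPM, −0.22 ± 0.10).

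**Figure D5:**
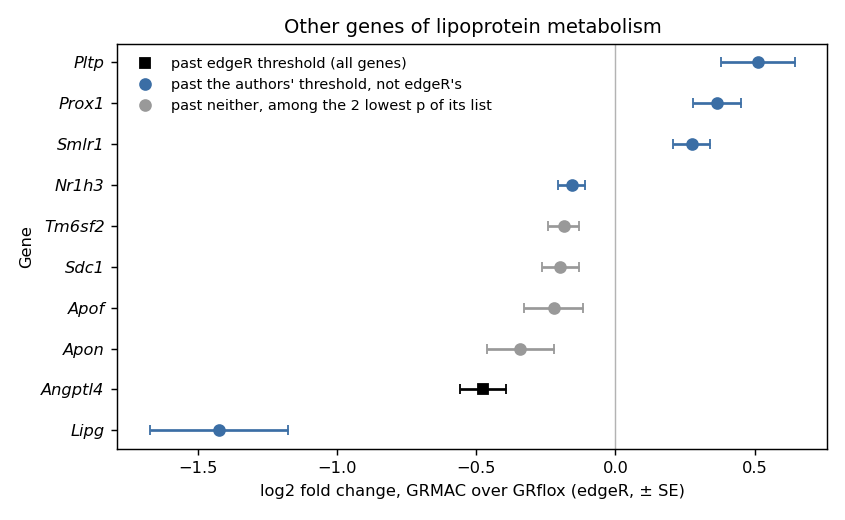
log2 fold change of GRMAC over GRflox with SE (edgeR) for the further genes named in the text. Angptl4 (square) passed over all genes with edgeR, the blue points passed in the authors' deposited table but not with edgeR on all 10 libraries, and the grey points passed neither and were among the 2 lowest p of their list; Lipg at −1.43 lies farthest from 0.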

How the data were processed

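Polyadenylated RNA of whole liver was sequenced as paired ends, per the labels' protocols. The authors deposited whole-number read counts per gene, 1 column per library. HISAT2 2.1.0, DESeq2 1.24.0 and mm10 are named in the submitters' processing notes. The counting program, its annotation, its strand setting and its treatment of introns are not given in the sources used here. A second table holds log2 fold changes and adjusted p-values of the authors' own comparison, per the file headers. Its 10 columns of values per library were not used. Columns were matched to titles by genotype and number. Starts are printed with the first base as 1.

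Low-count genes were dropped by filterByExpr (0.0348% of counts), libraries were scaled by TMM, and the genotypes were compared by edgeR's quasi-likelihood test (edgeR 4.0.16, R 4.3.3, robust), with Benjamini-Hochberg adjustment over 12558 genes and a threshold of 0.05. Standard errors were derived as the log2 fold change over the root of F. CPM are TMM-scaled, with means ± SD. Log2 CPM used a prior count of 2. DESeq2 1.42.0 and limma-voom (limma 3.58.1) were alternatives, as were a fit with replicate number as block, other scalings, no filter, and omission of each library in turn. Scripts were tested on simulated data. Transcript lengths and GC content came from GENCODE M21, available for 99.9% of tested genes. The correction fitted splines on both per library.

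Members and gene lists were chosen with earlier results of these data known. Named genes were the members, Nr3c1, list genes past the edgeR threshold or else the 2 with the lowest p, list genes past the authors' threshold, and the 3 genes closest to the most variable member. Of the list genes so chosen, 2 are counted but not reported here by name or value. The labels do not say that each library is a separate animal, so p-values measure the spread between these libraries. The lowest chi-square per degree of freedom between 2 libraries of a genotype was 16.4, so no 2 libraries were alike within counting noise.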

Additional observations from a re-analysis of the deposited data

Results flagged for a closer look

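A single library far from the other 4 of its genotype was sought in 56 sets of 5 values and found in 2; chance alone gives about 1 in 20. Apoa1 was at 5233 CPM in GRflox 4, against 6878 to 7290.4 CPM in the other GRflox libraries. The count of Apoa4 per count of Apoa1 reached 0.324 in GRMAC 4, where the remaining GRMAC libraries had 0.0968 to 0.155.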

How the results depend on the processing

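The 22 genes past the edgeR threshold became 424 with DESeq2 (22 shared), 8 with limma-voom, 8 without robust estimation, 34 without a filter, 81 with the replicate number as a block, 9 with the GC and length correction and 68 without GRflox 4 and GRMAC 4. They numbered 5 to 47 with 1 library left out; the cause was not tested. The correction and the fit without both libraries were chosen after the data were seen. Members past the threshold went from 0 to 1 with DESeq2 (Apob) and to 1 without GRflox 4 and GRMAC 4 (Apoa4), and were 0 in the other fits, with 0 when any 1 library was left out. The replicate block changed no member's call. Correlations of deviations between same-numbered libraries were −0.108 to 0.173, and 4 of the 10 libraries matched best with their own number. The labels do not say what equal numbers mean, so the numbers were not taken as pairs. The log2 fold change of Apom turned positive with upper-quartile scaling (0.0095), without scaling factors (0.018), with the correction (0.042) and without GRflox 4 and GRMAC 4 (0.050). With 1 library left out it was −0.036 to 0.060, that of Apoc3 −0.022 to 0.061 and that of Apoa5 −0.017 to 0.058. Apoa1, Apoa2, Apoa4, Apob, Apoc1, Apoe and Mttp kept their direction in all 20 alternatives. Pairs of members that passed numbered 8, 7 with median-ratio scaling or none, and 0 to 7 with 1 library left out.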
